A study of Mus musculus with 23 samples.

Results

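Mitochondria translate the few messages of their own genome with factors that are encoded in the nucleus. The 36 genes described here are among them, and not all of these act in mitochondria alone (Trnt1 serves every tRNA). They were listed by gene symbol, with earlier results of these data known, among the 37310 gene records of the RNA-seq count tables, and 23 of the 7500 high-confidence Zbtb11 binding windows lay at their promoters. They comprised 16 mitochondrial aminoacyl-tRNA synthetases, 2 initiation factors, 3 elongation factors, 4 release and recycling factors, 6 enzymes that modify tRNA bases, 1 that modifies rRNA, 2 that process tRNA ends and 2 that stabilise mitochondrial messages. All 36 genes were found in the tables (Slirp under an older name), and Nsun4 had a second, shorter record that was below the filter on low counts.

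Synthetases load each tRNA with its amino acid, initiation factors place the ribosome on the message, elongation factors deliver charged tRNAs and move the ribosome, and release and recycling factors free the finished chain and the ribosome. Mitochondrial tRNAs also need trimming at their ends and chemical changes at particular bases before they decode faithfully. At the wobble base of a subset of them, Gtpbp3 works together with Mto1 to add a taurine-containing group, and Trmu exchanges an oxygen for sulphur. Inherited defects in many of these genes impair oxidative phosphorylation in people.

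The RNA-seq experiment held 3 groups of 3 libraries from feeder-free E14 mouse embryonic stem cells (ESCs) kept in serum with LIF. In the Zbtb11 KO group, Zbtb11lox/lox Rosa26 ERt2-Cre cells, in which a drug-activated Cre recombinase at the Rosa26 locus removes an exon of the transcription factor gene Zbtb11, received 250 nM 4-hydroxytamoxifen (4OHT) for 48 h. The EtOH control group was the same engineered line, derived from isolated colonies, given the ethanol carrier. The 4OHT control group was Zbtb11WT/WT Rosa26WT cells given 4OHT, so it differed from the EtOH control in genotype, cell line history and drug at once, and these cannot be told apart. Binding was measured by ChIP-seq with an antibody to Zbtb11 in untreated Zbtb11WT/WT cells (4 libraries) and with a FLAG antibody in cells whose endogenous Zbtb11 carries a FLAG tag (3 libraries).

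Libraries held between 14301457 and 23876604 reads on genes. The 8 ESC markers examined summed to 4219 to 4661 CPM (reads scaled to library size) in the EtOH control, 4111 to 4749 in the KO and 4751 to 5177 in the 4OHT control, while the 4 fibroblast markers (Postn at or near 0) summed to at most 26.4 CPM, 4 primitive endoderm markers to at most 9.95 CPM and 3 mesoderm markers to at most 5.02 CPM, and the neural marker Pax6 was at most 17.1 CPM. In every group replicate 1 stood apart from replicates 2 and 3, so the tests below used replicates 2 and 3. For members, the result with all 3 replicates is given where it differed in its call. Replicate 1 had the lowest level of each group for 19 of the 36 members (52.8%, against 29.4% of 14346 tested genes) and the highest of each group for 4 (11.1%, against 30.0%). Deletion of Zbtb11 could not be followed, since none of 3 names of the gene (its symbol and the older names RefSeq lists) is in the annotation used for counting. The record named Rpl24, a ribosomal protein gene that RefSeq places directly beside Zbtb11, holds a further transcript that lies downstream of the others. The joint log2 fold change of this record in the KO against the EtOH control was -0.08 ± 0.06 (adjusted p = 0.95 in edgeR). It held 5408 to 8728 reads per library, and reads of its transcripts were not separated. This value therefore cannot show whether Zbtb11 was lost. The paper reports, from separate assays, that functional Zbtb11 transcripts and the protein were depleted in the drug-treated engineered line by the time of its RNA-seq. In bulk RNA-seq, fewer cells that express a gene and less RNA per cell cannot be told apart.

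The promoters of the members that fell are shown first, with those of a pair, Tufm and Mtif2, that also carried strong Zbtb11 peaks and did not fall. Gfm2, Iars2, Mars2 and Nsun4 likewise carried strong peaks and did not fall, and their promoters are not printed. Each line gives the gene-strand sequence 5′ to 3′ from RefSeq, matched exactly once to the mm9 genome. It ends 30 bases after the RefSeq start site, and begins 250 bases before the start for Gtpbp3, Trmu and Tars2 and 100 bases before it for Tufm and Mtif2. Capitals mark the letters CCGGAAG, or their reverse complement, which form the core of the motif bound by NRF-2 (also called GABP), a transcription factor that activates many nuclear genes for mitochondrial proteins. The windows are chr8:74012377-74012656 (plus strand) for Gtpbp3, chr15:85709507-85709786 (plus strand) for Trmu, chr3:95558871-95559150 (minus strand) for Tars2, chr7:133630769-133630898 (plus strand) for Tufm and chr11:29426297-29426426 (plus strand) for Mtif2.
Gtpbp3: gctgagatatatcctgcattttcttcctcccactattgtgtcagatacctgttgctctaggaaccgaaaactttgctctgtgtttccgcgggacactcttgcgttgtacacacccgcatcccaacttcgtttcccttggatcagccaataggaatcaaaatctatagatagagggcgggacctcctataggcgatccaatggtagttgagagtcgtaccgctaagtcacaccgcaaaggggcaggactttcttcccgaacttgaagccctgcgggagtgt
Trmu: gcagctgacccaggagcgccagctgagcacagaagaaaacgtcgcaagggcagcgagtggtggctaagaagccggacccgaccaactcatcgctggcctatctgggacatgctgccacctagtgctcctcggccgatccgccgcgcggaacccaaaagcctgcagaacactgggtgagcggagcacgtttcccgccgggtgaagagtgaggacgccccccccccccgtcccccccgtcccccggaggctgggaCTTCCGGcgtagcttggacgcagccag
Tars2: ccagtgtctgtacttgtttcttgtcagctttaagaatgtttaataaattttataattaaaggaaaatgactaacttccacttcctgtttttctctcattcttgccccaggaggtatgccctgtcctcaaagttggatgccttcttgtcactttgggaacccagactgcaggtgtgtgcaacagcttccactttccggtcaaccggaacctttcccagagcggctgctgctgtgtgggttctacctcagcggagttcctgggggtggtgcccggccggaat
Tufm: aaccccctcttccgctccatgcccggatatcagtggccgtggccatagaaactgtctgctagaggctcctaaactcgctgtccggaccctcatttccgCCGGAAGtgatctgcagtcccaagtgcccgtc
Mtif2: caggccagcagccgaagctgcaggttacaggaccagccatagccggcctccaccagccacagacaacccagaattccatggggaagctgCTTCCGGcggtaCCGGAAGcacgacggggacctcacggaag
The motif was present at the Trmu, Tufm and Mtif2 starts, with 2 copies in Mtif2, and its letters were not in the Gtpbp3 and Tars2 windows. Only these exact letters were searched, and the Tars2 window holds the shorter CCGGAA near the start on both strands. The paper reports NRF-2 binding at nearly all Zbtb11 peaks at promoters of genes that changed in its KO. Binding of NRF-2 was not examined here. Over windows from 250 bases before to 50 bases after the start, CCGGAAG was found on either strand in 10 of the 32 members listed in the promoter table and in 8.86% of all 32851 promoters listed. A member counted if any of its listed promoters held the letters, whereas the shares of all promoters count each promoter singly, so the figures are not like for like. CCGGAAG was found in 4 of the 9 members whose promoters carried the strongest Zbtb11 peaks, namely Mars2, Mtif2, Trmu and Tufm. Its letters were absent from Gtpbp3 and Tars2, which fell, and from Gfm2, Iars2 and Nsun4, which did not. GCATGCGC, part of the motif bound by NRF-1, was found in 4 members (Rars2, Trit1, Vars2 and Wars2) and in 2.71% of all promoters. No window of those 9 members held GCATGCGC. Rars2 was the only member with both sets of letters, and they did not overlap there.

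A Zbtb11 peak lay at the promoter, from 2 kb upstream to 500 bases downstream of an annotated start, of 22 of the 36 members (61.1%), against 4440 of 14172 tested genes (31.3%). Of these, 9 members carried a Zbtb11-high peak (25.0%, against 870 tested genes, 6.14%), which means that its normalised coverage, averaged over the 4 Zbtb11 antibody libraries, was above 309, the upper quartile of all 7500 peaks plus 1.5 interquartile ranges. No test was made of these shares. The 9 peaks were centred within 166 bases of a start. No member had a peak in the list called from the FLAG antibody in untagged cells. The study had removed such peaks from its FLAG-Zbtb11 set, so for members with a peak this was largely fixed in advance.

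The strongest member peak, ranked 20 of all 7500, lay at chr13:97907223-97908423 (mm9) over the starts of Gfm2, a ribosome recycling factor, and of its neighbour Nsa2, with coverage of 845, 1173, 675 and 1254 in the 4 Zbtb11 antibody libraries. The peak at Gtpbp3 (chr8:74011854-74013054, rank 33), which also covers the promoter of Ano8, had coverage of 762, 975, 732 and 1300.3, a mean 3.05 times the limit for Zbtb11-high peaks. A further, weak peak with a mean of 55.5 was centred at -2143 bases from the Gtpbp3 start. The peaks at Mtif2 (732 ± 195, SD, n = 4 libraries), Tars2 (725 ± 204), Tufm (597 ± 161), Trmu (588 ± 158), Iars2 (575 ± 100.1), Mars2 (558 ± 133) and Nsun4 (391 ± 60.5) completed the set. They lay at chr11:29425818-29427018, chr3:95558332-95559532, chr7:133630264-133631464, chr15:85709085-85710285, chr1:187152595-187153795, chr1:55293290-55294490 and chr4:115725809-115727009, in that order. The SDs are of the size of the differences among the means from Mtif2 to Mars2, and their order was not tested.

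The other 13 members with a peak had means between 24.0 (Trmt5) and 108 (Hars2), so no member lay between 108 and 391, a range that held 25.1% of all 7500 peaks. In the 3 FLAG libraries the 9 strongest members ran from 257 ± 74.2 (Nsun4) to 781 ± 161 (Gtpbp3). The remaining 14 members had no high-confidence peak. They were Aars2, Ears2, Fars2, Lars2, Pars2, Sars2 and Vars2 among the synthetases, and Tsfm, Mrrf, Mto1, Trit1, Elac2, Trnt1 and Slirp, of which Elac2 had a peak in the FLAG list alone. Gtpbp3 and Mto1, which act as partners, therefore differed in this respect.

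**Figure D1:**
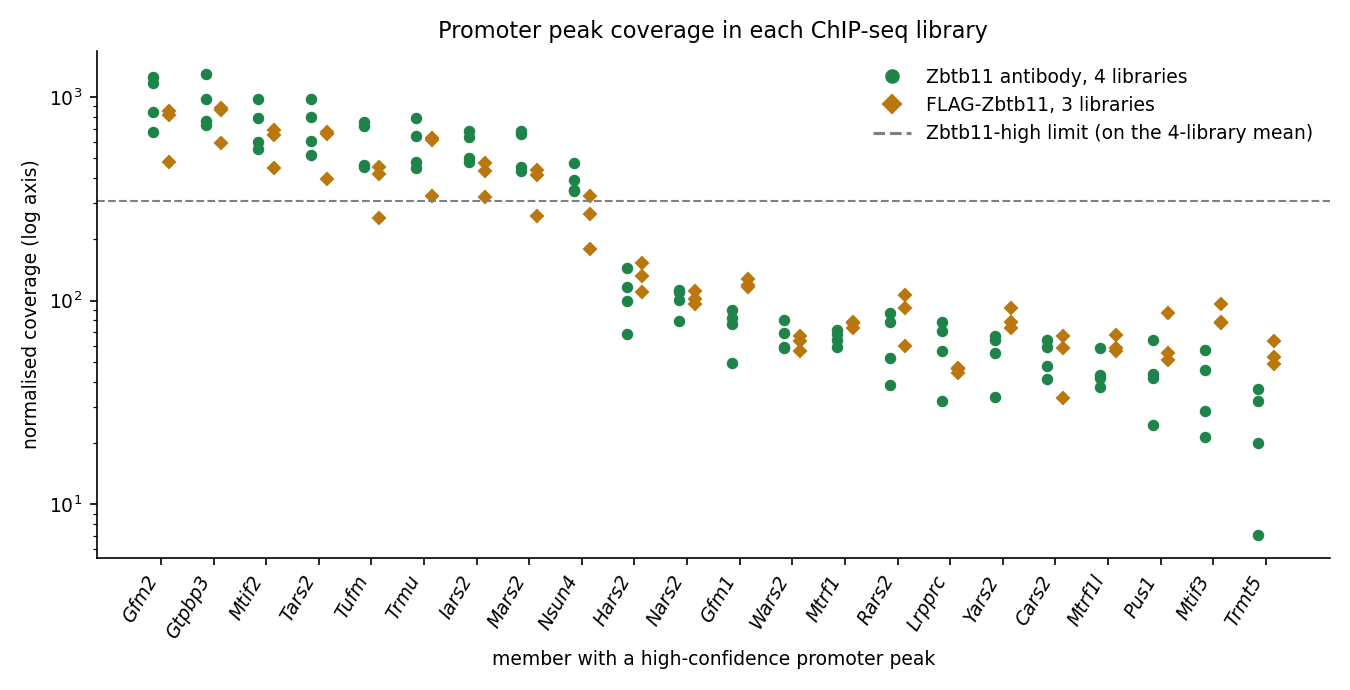
Normalised coverage (log axis) at the strongest promoter peak of each of the 22 members with one, ordered by the mean of the 4 Zbtb11 antibody libraries (circles); diamonds are the 3 FLAG-Zbtb11 libraries and the dashed line is the Zbtb11-high limit of 309. The 9 members from Gfm2 to Nsun4 sit above the limit on the 4-library mean and the next, Hars2, has a mean of 108.

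Comparing the Zbtb11 KO with the EtOH control asks which members change when Zbtb11 is deleted in 1 cell line. The KO libraries alone had received the drug and had active Cre, so in this comparison drug, Cre activity and deletion cannot be told apart. Gtpbp3, Trmu and Tars2 fell and no member rose (3 of 36, 8.33%), against 1.5% of 14172 tested genes in either direction, 1.35% lower and 0.148% higher (edgeR quasi-likelihood test, Benjamini-Hochberg adjusted p under 0.05). The median log2 fold change over the 36 members was -0.0034 and over all tested genes -0.0014, and 30 of the 33 members that did not pass had a log2 fold change within 0.25 of 0. For 30 of those 33 the 95% interval lay inside -0.5 to 0.5.

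Gtpbp3, the GTP-binding wobble-base enzyme, was at 23.04, 26.1 and 23.4 CPM in replicates 1 to 3 of the EtOH control and at 10.8, 11.2 and 10.5 CPM in the KO. Every KO library was below every control library, by more than the whole spread within either group. The log2 fold change was -1.19 ± 0.10 (SE; 95% interval -1.41 to -0.96), a fold of 2.28 lower, with an adjusted p of 2.7e-05 in edgeR, and the within-replicate log2 differences of -1.06, -1.18 and -1.12 were alike in the 3 replicates. It was the only member called with all 3 replicates (adjusted p = 0.0002), where 0.899% of 14346 tested genes were called. Ano8, a membrane protein gene that shares the Gtpbp3 promoter peak, had a log2 fold change of -0.36 ± 0.16 and did not pass (adjusted p = 0.76, edgeR), while against the 4OHT control it was lower in the KO (-0.92 ± 0.15, adjusted p = 0.0014).

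Trmu, the thiolation enzyme, was lowly expressed, with 91, 111 and 108 reads in the EtOH control libraries and 42, 48 and 54 in the KO libraries. In CPM these were 4.74, 4.75 and 5.00 against 2.45, 2.33 and 2.68, without overlap. The log2 fold change was -0.96 ± 0.19 (95% interval -1.37 to -0.55, adjusted p = 0.021 in edgeR). It did not pass with all 3 replicates (adjusted p = 0.10), in DESeq2 (adjusted p = 0.059) or when any of the 4 libraries of the EtOH control and KO was left out (adjusted p of 0.12 without EtOH control replicate 2, 0.19 without replicate 3, 0.28 without KO replicate 2 and 0.12 without KO replicate 3), while the fold change stayed between -1.06 and -0.86.

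Mto1, the partner of Gtpbp3 in the same reaction, was at 27.4, 29.9 and 34.4 CPM in the EtOH control and at 30.2, 30.4 and 32.5 CPM in the KO, with overlapping groups and a log2 fold change of -0.03 ± 0.10 (95% interval -0.26 to 0.19). Members that modify other tRNA bases gave values close to 0 as well, from Pus1, a pseudouridine synthase, at -0.01 ± 0.10 to Trit1, which adds an isopentenyl group beside the anticodon, at 0.10 ± 0.10. Of the 6 tRNA modifying enzymes, 2 therefore fell and 4 did not pass.

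**Figure D2:**
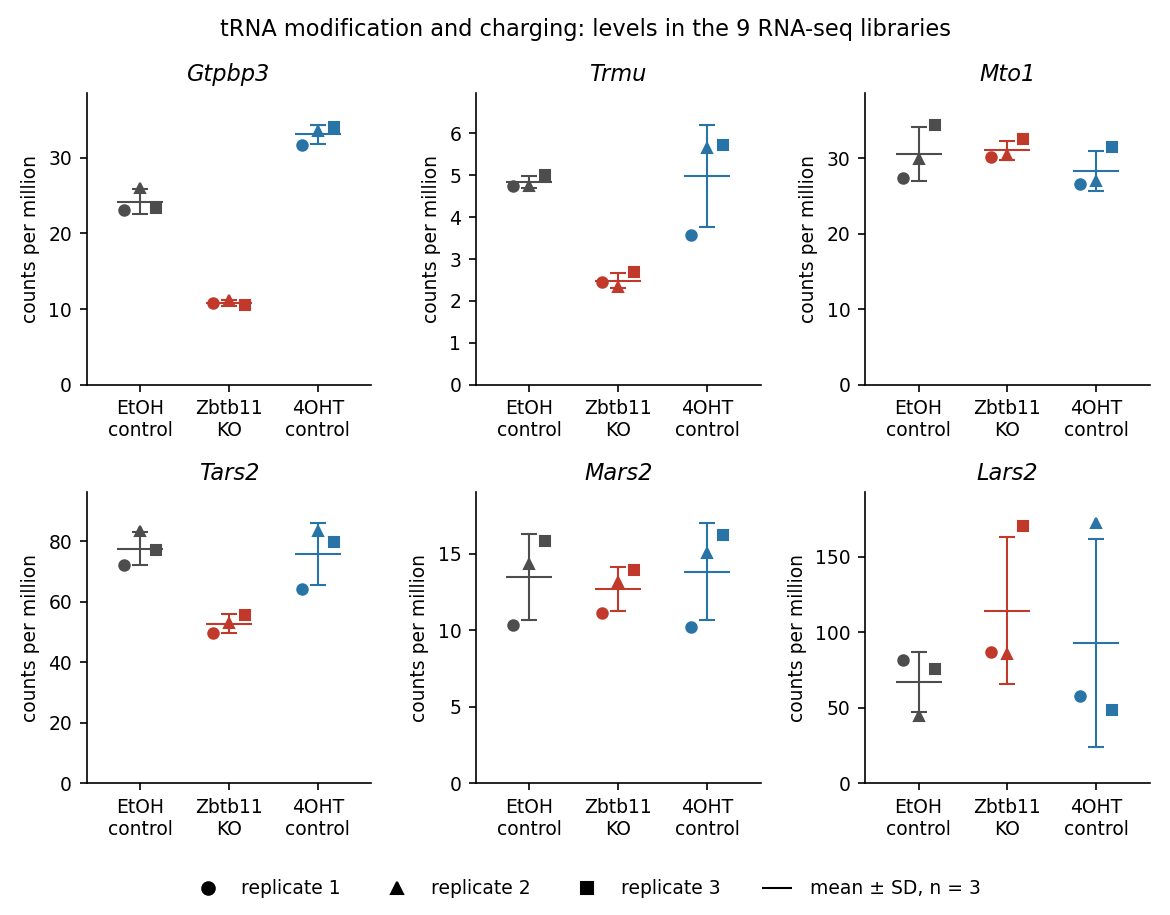
CPM (linear axis from 0) of 3 tRNA modifying enzymes and 3 synthetases in the 9 RNA-seq libraries; symbols are replicates, and bars are the mean and SD of 3 libraries. Gtpbp3, Trmu and Tars2 sit lower in all KO libraries than in all EtOH control libraries, whereas Mto1 and Mars2 overlap between groups and Lars2 runs from 44.4 to 172 CPM.

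Among the synthetases, Tars2, which charges the threonine tRNA, was the 1 member that fell, and 15 of 16 did not pass. It was at 72.3, 83.4 and 77.1 CPM in the EtOH control and at 49.6, 53.1 and 55.8 CPM in the KO, again without overlap. The log2 fold change was -0.56 ± 0.07 (95% interval -0.72 to -0.40, a fold of 1.48 lower, adjusted p = 0.00082 in edgeR). With all 3 replicates the estimate was -0.56 and the adjusted p 0.075, while with the replicate number as a block, which removes the difference shared by libraries of 1 number, the adjusted p was 2.0e-06.

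Other synthetases whose promoters carried Zbtb11-high peaks did not pass. Iars2, for isoleucine, was at 146, 122 and 119 CPM in the EtOH control and 147, 128 and 121 in the KO, a log2 fold change of 0.04 ± 0.07. Mars2, for methionine, was at 10.4, 14.3 and 15.8 CPM in the EtOH control and 11.1, 13.1 and 13.9 in the KO (-0.16 ± 0.11). Both pairs of groups overlapped. Among the synthetases without a call the lowest value was that of Wars2, for tryptophan (-0.29 ± 0.15, 95% interval -0.61 to 0.03), and the highest was that of Lars2, for leucine (1.09 ± 0.46, adjusted p = 0.72). Lars2 had the largest SE of the 36 members, with 81.5, 44.4 and 75.7 CPM in the EtOH control, 87.0, 85.5 and 170.5 in the KO and 58.1, 172 and 48.6 in the 4OHT control, so 1 library in each drug-treated group was above all others. Of all fits run, Lars2 was called only without 4OHT control replicate 2, higher in the KO than in the 4OHT control (1.40 ± 0.34, adjusted p = 0.016), and without 4OHT control replicate 3, higher in the 4OHT control than in the EtOH control (1.54 ± 0.30, adjusted p = 0.0049). Nsun4, an rRNA methyltransferase with a Zbtb11-high peak, was at 8.50, 10.5 and 10.6 CPM in the EtOH control and 7.92, 9.75 and 8.05 in the KO (-0.25 ± 0.14, adjusted p = 0.91), and 27.3% of its exon length overlaps its second record, where reads count as ambiguous.

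None of the 9 initiation, elongation, release and recycling factors passed in either direction. Tufm, the elongation factor that brings charged tRNAs to the ribosome, was at 98.2, 141 and 141 CPM in the EtOH control and 123, 158 and 171 CPM in the KO, higher within each replicate number. Its log2 fold change was 0.22 ± 0.07 (adjusted p = 0.31 in edgeR), and with the replicate block over all 3 replicates 0.25 ± 0.05 (adjusted p = 0.0059). Mtif2, the factor that brings the initiator tRNA, was at 73.6, 79.4 and 82.3 CPM in the EtOH control and 90.1, 87.3 and 101 CPM in the KO, without overlap. Its log2 fold change was 0.22 ± 0.08 (adjusted p = 0.54), and 0.24 ± 0.06 with that block (adjusted p = 0.026). With the block 5 members were called in all, Gtpbp3, Trmu and Tars2 lower and Tufm and Mtif2 higher (13.9%, against 2.25% of 14346 tested genes).

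Gfm2 had the strongest promoter peak and was lower in the KO in 3 of 3 replicates, at 77.7, 89.9 and 95.9 CPM in the EtOH control and 68.5, 80.8 and 86.7 in the KO, but its log2 fold change of -0.15 ± 0.07 did not pass (95% interval -0.31 to 0.01, adjusted p = 0.83). Nsa2, a ribosome assembly gene across the same peak, fell by 0.30 on the log2 scale (SE 0.07, adjusted p = 0.042 in edgeR), and against the 4OHT control its value of -0.19 ± 0.07 did not pass (adjusted p = 0.069). The remaining initiation, elongation, release and recycling factors lay between -0.14 (Mtrf1) and 0.12 (Tsfm). Slirp and its partner Lrpprc, which stabilise mitochondrial messages, had log2 fold changes of -0.27 ± 0.09 (adjusted p = 0.47) and 0.02 ± 0.07, with exons of Snw1 opposite 30.4% of the exon length of Slirp. The tRNA end enzymes Elac2 and Trnt1 had values of 0.03 ± 0.09 and -0.04 ± 0.07.

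Set against the promoter peaks, all 3 members that fell were among the 9 with a Zbtb11-high peak (3 of 9, 33.3%), where 175 of 870 tested genes with such a peak fell (20.1%). None of the 13 members with a weaker peak and none of the 14 without a peak was called, where 6 of 3570 and 10 of 9732 tested genes fell. The median log2 fold change was -0.16 over the 9 members and -0.06 over the 870 genes. At like coverage, Mtif2 (732 ± 195) had a log2 fold change of 0.22 and Tars2 (725 ± 204) of -0.56. No test was made of these counts.

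**Figure D3:**
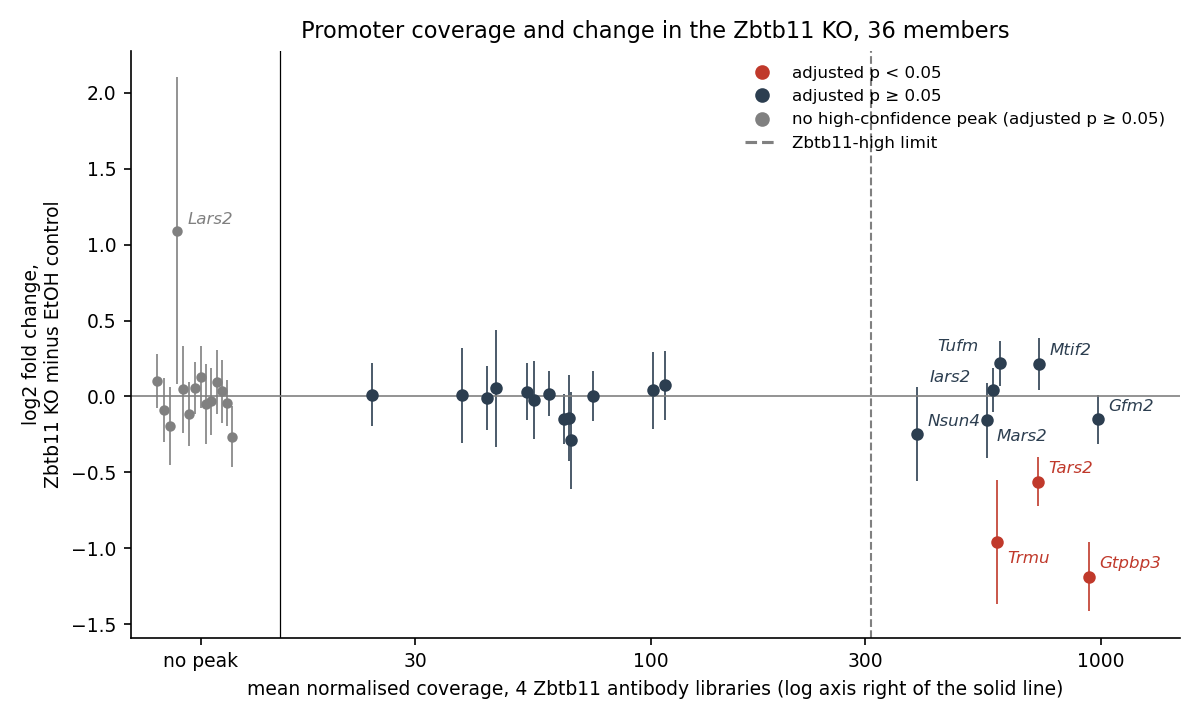
Log2 fold change of each of the 36 members, Zbtb11 KO minus EtOH control, with 95% intervals, against mean normalised coverage at the promoter peak (log axis); members without a high-confidence peak are drawn left of the solid line at no coverage value. The 3 members past the threshold lie right of the Zbtb11-high limit of 309, where Tufm and Mtif2 lie above 0.

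The 4OHT control against the EtOH control measured the drug in wild-type cells together with the difference between the lines. Of the 36 members 7 passed (19.4%), 5 lower and 2 higher, close to the 17.1% of all tested genes called in this comparison (8.22% lower and 8.86% higher). The median over the members was -0.07 and over all tested genes 0.01. Summed ESC markers were higher in every 4OHT control library than in every EtOH control and KO library, and so were the summed mesoderm markers (4.67 to 5.02 CPM, against at most 3.93), and their part in these differences was not tested. With all 3 replicates 2 members passed, Gtpbp3 and Trnt1 (4.06% of tested genes), and with the replicate block over all 3 replicates 11 (33.6% of tested genes).

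Trnt1, which adds the CCA end to every tRNA, was at 94.1, 114 and 121 CPM in the EtOH control and at 53.5, 70.8 and 77.2 CPM in the 4OHT control, without overlap (log2 fold change -0.67 ± 0.07, adjusted p = 0.00012 in edgeR). Tufm was at 74.6, 94.6 and 101 CPM in the 4OHT control, and its log2 fold change was -0.53 ± 0.07 (adjusted p = 0.00045), but it did not pass with all 3 replicates (adjusted p = 0.18). Gtpbp3 was higher in the 4OHT control, at 31.6, 33.6 and 34.1 CPM, than in every EtOH control library (0.45 ± 0.09, adjusted p = 0.0070), and did not pass without EtOH control replicate 3 (adjusted p = 0.10). Ano8, across the Gtpbp3 peak, was higher as well (0.56 ± 0.15, adjusted p = 0.023).

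The other 4 calls were smaller. The release factor Mtrf1 fell by 0.43 (SE 0.13, adjusted p = 0.043), Gfm2 by 0.25 (SE 0.07, adjusted p = 0.041) and Iars2 by 0.23 (SE 0.07, adjusted p = 0.039), and Cars2, for cysteine, rose by 0.28 (SE 0.08, adjusted p = 0.040), all on the log2 scale. In CPM, Mtrf1 was at 14.9, 17.3 and 17.3 in the EtOH control, against 12.4, 11.9 and 13.6 in the 4OHT control, and Cars2 at 23.6, 27.1 and 26.3 against 27.2, 33.2 and 31.5, both without overlap. Gfm2, at 57.6, 74.3 and 81.8 CPM in the 4OHT control, overlapped the EtOH control. None of these 4 passed in DESeq2 or with all 3 replicates. Leaving out libraries of any group singly, Mtrf1 was lost without EtOH control replicate 2, EtOH control replicate 3 or 4OHT control replicate 2 (adjusted p of 0.17, 0.18 and 0.15). Cars2 and Gfm2 passed only without 4OHT control replicate 3, and Iars2 only without 4OHT control replicate 2, with adjusted p of up to 0.24, 0.28 and 0.22 otherwise.

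With the block over all 3 replicates 4 further members were called. Aars2, for alanine, was higher in the 4OHT control (0.26 ± 0.06, adjusted p = 0.0030), at 38.8, 43.7 and 45.0 CPM against 31.6, 37.4 and 37.4 in the EtOH control. Fars2, for phenylalanine, was lower (-0.26 ± 0.09, adjusted p = 0.039), at 19.1, 15.7 and 15.99 CPM against 19.5, 18.2 and 22.6. Wars2 was lower as well (-0.36 ± 0.11, adjusted p = 0.018), at 6.25, 6.32 and 6.89 CPM against 7.87, 8.43 and 8.60, without overlap. Mtif2, at 58.4, 68.5 and 72.6 CPM, was below every EtOH control library (-0.24 ± 0.06, adjusted p = 0.0040).

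**Figure D4:**
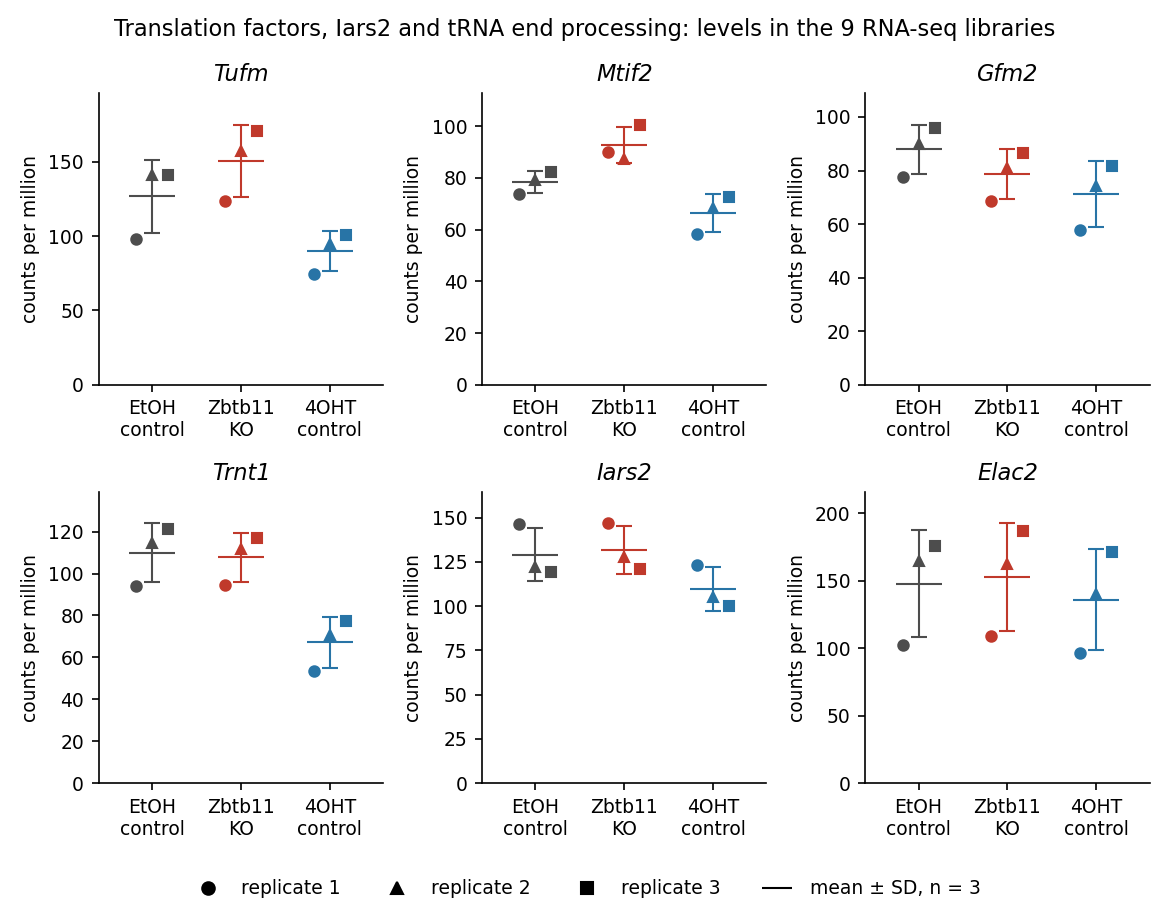
CPM (linear axis from 0) of the elongation factor Tufm, the initiation factor Mtif2, the recycling factor Gfm2, the synthetase Iars2 and the tRNA end enzymes Trnt1 and Elac2 in the 9 RNA-seq libraries; symbols are replicates, and bars are the mean and SD of 3 libraries. Trnt1 lies between 53.5 and 77.2 CPM in the 4OHT control and at 94.1 CPM or more in the other groups, and Elac2 replicate 1 is the lowest library of each group.

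In the third comparison, of Zbtb11 KO with 4OHT control, both groups had received the drug and the lines differed. It shares its libraries with the other comparisons and is not independent of them. Again 7 of 36 members passed (19.4%, against 18.7% of all tested genes), 3 lower (10.3% of tested genes were lower) and 4 higher (8.38% were higher), and the median was 0.05 against -0.0013 over all tested genes.

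The 3 lower members were those that fell against the EtOH control. Gtpbp3 had a log2 fold change of -1.64 ± 0.10 (a fold of 3.12 lower, adjusted p = 7.5e-07 in edgeR). Trmu, at 3.57, 5.64 and 5.73 CPM in the 4OHT control, had -1.19 ± 0.18 (adjusted p = 0.00093), and Tars2, at 64.1, 83.3 and 79.8 CPM there, had -0.59 ± 0.07 (adjusted p = 0.00019). KO levels of all 3 genes lay below every library of both controls. With all 3 replicates they stayed below the threshold (adjusted p of 1.9e-05, 0.019 and 0.026), where 6.45% of tested genes were called.

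The 4 higher members were Tufm (0.74 ± 0.07, adjusted p = 1.7e-05 in edgeR), Trnt1 (0.62 ± 0.07, adjusted p = 9.9e-05), Mtif2 (0.41 ± 0.08, adjusted p = 0.0040) and Iars2 (0.27 ± 0.07, adjusted p = 0.016). For Trnt1 the KO and EtOH control levels overlapped and the 4OHT control was the group that stood apart. For Iars2, at 123, 105 and 100.3 CPM in the 4OHT control, replicate 1 of that group lay within the range of the others. Iars2 did not pass with all 3 replicates (adjusted p = 0.27) or without KO replicate 2 (adjusted p = 0.12), and exons of Rab3gap2 on the opposite strand cover 22.7% of its exon length. Mtif2 did not pass without KO replicate 3 (adjusted p = 0.058). With the block over all 3 replicates 13 members passed (34.9% of tested genes did), the further ones being Cars2 lower and Hars2, Mtrf1, Trit1, Pus1 and Elac2 higher, with log2 fold changes from -0.23 to 0.30. Between these groups the levels of Cars2, Trit1, Pus1 and Elac2 overlapped and those of Hars2 and Mtrf1 did not. Hars2, for histidine, was at 22.2, 22.4 and 27.0 CPM in the KO and 17.4, 21.2 and 22.2 in the 4OHT control, Trit1 at 27.2, 23.03 and 23.6 against 25.1, 18.6 and 19.9, and Pus1 at 53.2, 51.4 and 61.7 against 46.9, 46.0 and 51.5. Of the exon length of Pus1, 23.8% lies opposite a non-coding gene.

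**Figure D5:**
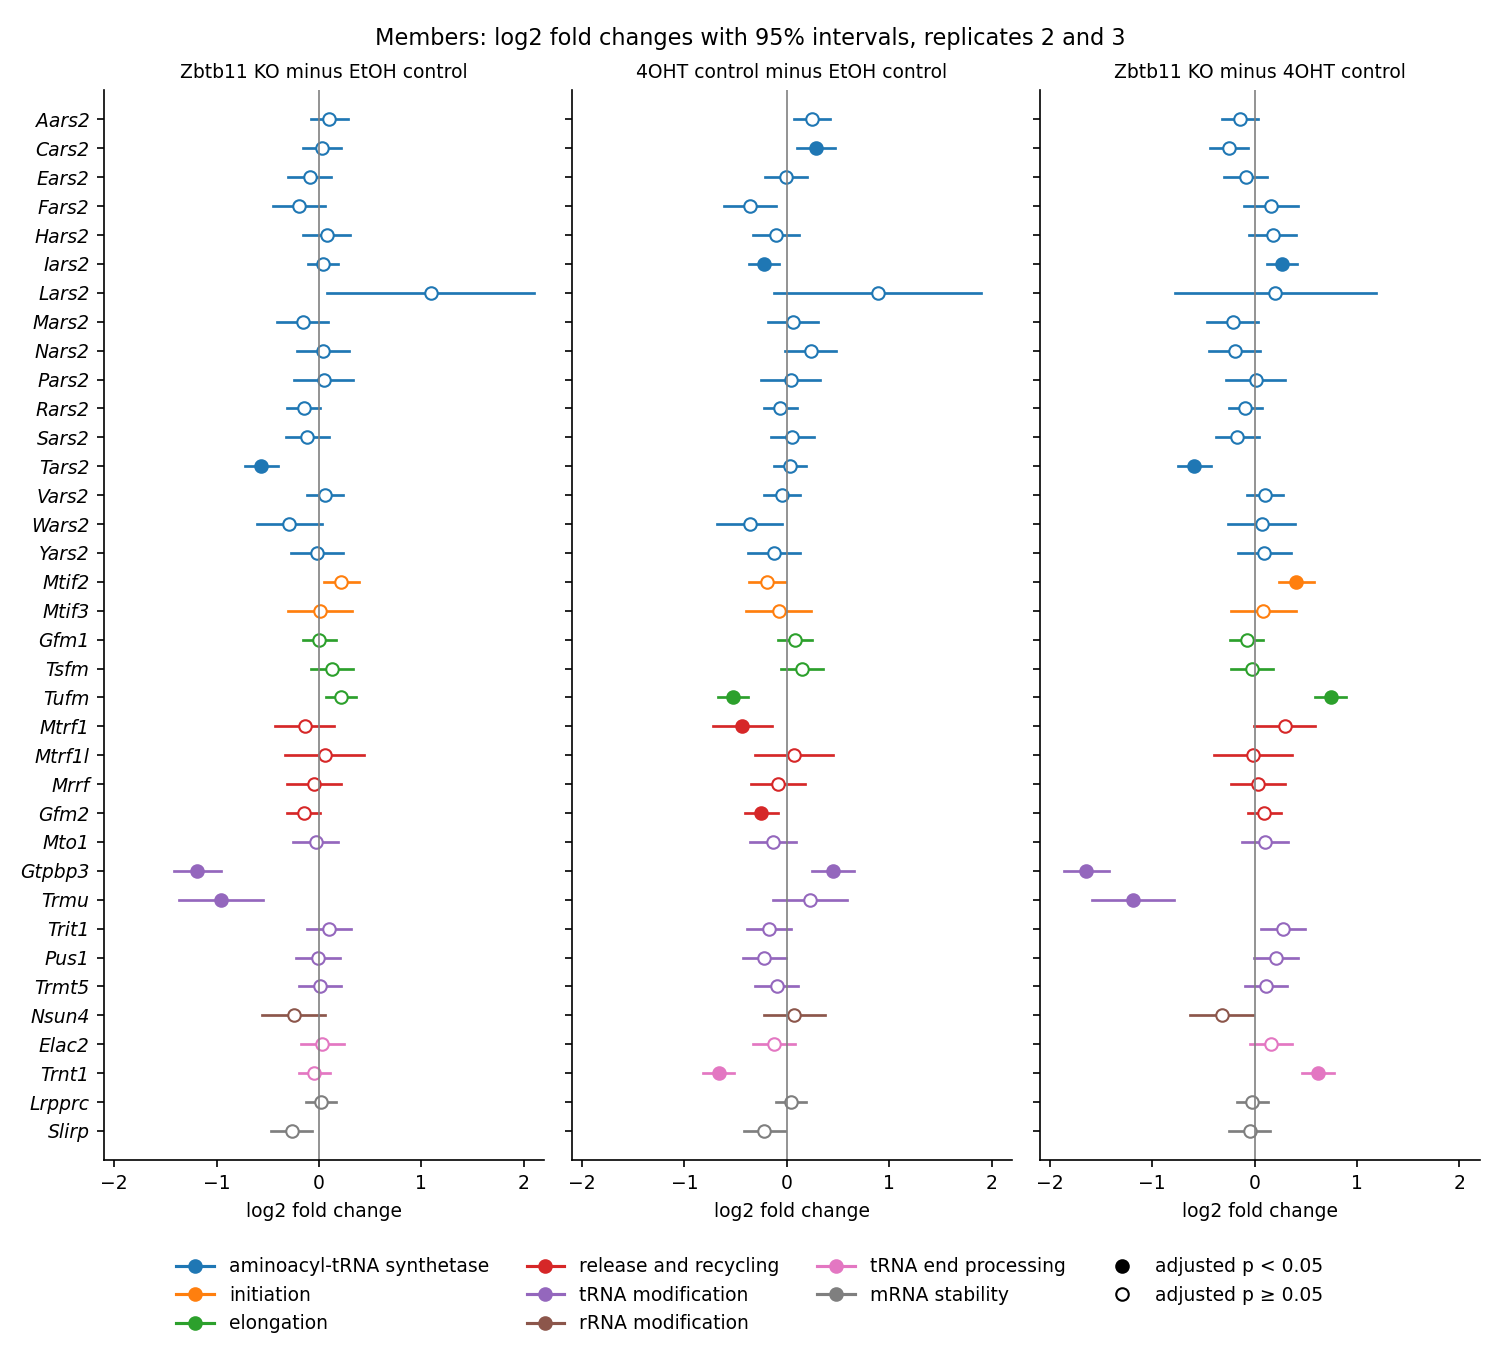
Log2 fold changes of the 36 members with 95% intervals in the 3 comparisons (replicates 2 and 3), coloured by role; filled points have an adjusted p under 0.05. Gtpbp3, Trmu and Tars2 are lower in the KO against either control, and Trnt1 and Tufm, at -0.67 and -0.53 in the 4OHT control against the EtOH control, are higher in the KO against the 4OHT control.

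Levels per kilobase of exon, averaged over the 9 libraries, ranged widely among the members. Tufm was the highest, at 68.9 CPM per kilobase, followed by Elac2 at 41.8 and Lrpprc at 25.4. The lowest were Trmu at 1.03, Wars2 at 1.20 and Mtrf1l, a release factor, at 1.41 CPM per kilobase. These means include the KO libraries, in which Trmu, Gtpbp3 and Tars2 were lower, so the order of close values depends in part on them. Among the synthetases Lars2 had the highest mean, 23.6 CPM per kilobase with a range of 11.4 to 44.4 over libraries, and the median of the 16 was 9.39. Mtif2 (20.5) was above Mtif3 (2.23), a further initiation factor, of whose exon length 29.4% lies opposite Gtf3a. Gtpbp3, at 5.70, and Trmu were below the median of the 6 tRNA modifying enzymes, 9.20 CPM per kilobase, and Pus1 (24.0) was the highest of these. Elac2, which cuts the tail from precursor tRNAs, showed a wide gap between replicate 1 and the others, with 102, 165 and 176 CPM in the EtOH control, 109, 163 and 187 in the KO and 96.8, 140.2 and 171 in the 4OHT control.

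Of 46 other genes with roles in mitochondrial translation or RNA modification, 45 were tested. Against the EtOH control, where 1.35% of 14172 tested genes were lower in the KO and 0.148% higher, 4 of these 45 fell and none rose. These were Taco1, an activator of translation of a cytochrome oxidase subunit (-1.88 ± 0.15), Trub2, a pseudouridine synthase, Ict1, a peptidyl-tRNA hydrolase of the mitochondrial ribosome (-0.88 ± 0.08), and Cdk5rap1, which modifies a base beside the anticodon of mitochondrial tRNAs (-0.72 ± 0.09), with adjusted p between 1.7e-05 and 0.00082 in edgeR. Trub2 was at 34.8, 40.9 and 39.9 CPM in the EtOH control and at 15.02, 20.4 and 19.97 CPM in the KO. Taco1 was at 15.1, 21.1 and 18.1 CPM in the EtOH control and at 3.61, 6.01 and 4.67 CPM in the KO. All 4 had a Zbtb11-high promoter peak, with mean coverage from 605 (Cdk5rap1) to 827 (Trub2). The other two with such a peak, Trmt10c and Mtg1, did not pass. With all 3 replicates Taco1 and Trub2 were called (0.899% of all tested genes were). With the replicate block over all 3 (2.25% of all tested genes called) the same 4 genes were lower. Mtg1, a ribosome assembly GTPase, was higher with that block (0.31 ± 0.07, adjusted p = 0.022 in edgeR).

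Of these 45 genes, 4 were lower in 4OHT control than in EtOH control cells (Rpusd3, Qrsl1, Cdk5rap1 and Hsd17b10) and Ddx28 was higher, with log2 fold changes from -0.65 to 0.38 (5 of 45, where 17.1% of all tested genes were called). None of the 45 passed in edgeR with all 3 replicates (4 had an unadjusted p under 0.05), where 4.06% of all tested genes were called. With the block 9 genes were lower and 2 higher, where 33.6% of all tested genes were called. Between the KO and the 4OHT control Taco1, Trub2, Ict1 and Cdk5rap1 were lower and Rpusd3, Mtg1 and Qrsl1 higher, from -1.99 to 0.75 (7 of 45, where 18.7% of all tested genes were called). With all 3 replicates Cdk5rap1 was lost (-0.47 ± 0.16, adjusted p = 0.15 in edgeR), where 6.45% of all tested genes were called. With the block 5 genes were lower and 8 higher, where 34.9% of all tested genes were called. For KO against EtOH control their median was -0.02.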

How the data were processed

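RNA-seq libraries were rRNA-depleted, directional and paired-end. The authors aligned reads with STAR to mm9 and counted reads per gene with HTSeq against GENCODE vM1, and deposited 1 raw count table per library. Whether counting used strand was not given in the sources used here. Records that name no gene (25.3% to 31.6% of each table's total for no feature, 0.789% to 0.905% for ambiguous reads) were left out of library sizes. ChIP-seq reads were aligned by the authors with Bowtie 1.1.2, peaks were called with MACS2 and the deposited normalised coverage of the 7500 peaks common to both antibodies was made with DiffBind. The 5 input libraries were not used, and of the 2 FLAG control libraries only the peak list was.

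Genes above 1 CPM in at least 2 libraries (3 when all 9 were fitted) were tested with edgeR 4.0.16 in R 4.3.3 (quasi-likelihood F test, TMM, two-sided, Benjamini-Hochberg over all tested genes), in 1 fit of replicates 2 and 3 of the 3 groups. The study's methods leave out a distant replicate from the final list, taken here as replicate 1, which correlated negatively in its deviations from the group means with the others. Adjusted p in the text come from these fits. Libraries with the same replicate number deviated together (r from 0.506 to 0.861 over 9 pairs, against -0.792 to 0.576 for different numbers), so the numbers were taken as pairs. Deviations were from means of 3 libraries, so a replicate 1 that stands apart shapes these correlations. Among replicates 2 and 3 alone, r was 0.506 to 0.748 for the same number and 0.334 to 0.576 for different numbers. These ranges overlap, and pairing within replicates 2 and 3 was not established. Calls of the fit blocked on the numbers over all 3 replicates are given beside the others, with those over replicates 2 and 3 among the alternatives. The study's methods call the replicates biological without saying how they were separated, and p-values measure the spread between these libraries.

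CPM in the text are TMM-scaled, and within-replicate differences used log2(CPM + 0.5). Precision at low counts is limited by depth, and errors are those of the fits. The fit was tested on simulated data for the KO against EtOH control comparison. There 181 of 200 changed genes were recovered among 186 called of 13964 tested, and 0 were called with none changed. Recovery of differences as small as those of most members was not tested. Promoter sequences came from RefSeq (GRCm38.p6), and those printed were located in mm9 by exact match. Peak coordinates are as the coverage table gives them.

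Members and gene lists were chosen with earlier results of these data known. Values are given for members past the threshold in any comparison with replicates 2 and 3, with all 3 replicates or with the block over all 3, for members with a Zbtb11-high promoter peak, and for the extremes of each role. Genes outside the list are named where they share a member's peak or pass the threshold in the list of other mitochondrial translation genes. Alternatives were other replicate pairs, all 3 replicates, the block, DESeq2 1.42.0, library sizes without TMM, other filters, the newer quasi-likelihood form, 2 groups alone and leaving out each library.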

Additional observations from a re-analysis of the deposited data

How the results depend on the processing

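Counts of members called depended most on replicate 1 and on the block. In the KO against the EtOH control, 3 became 1 with all 3 replicates and 0 with replicates 1 and 3 or 1 and 2 (edgeR; 3 members had an unadjusted p under 0.05 in each pair), 5 with the replicate block over all 3, and 2 to 3 when single libraries were left out. In the 4OHT control against the EtOH control, 7 became 2 with all 3 replicates, 0 with replicates 1 and 3 or 1 and 2 (2 and 3 members at an unadjusted p under 0.05 in edgeR), 11 with either replicate block, 3 in DESeq2, 4 with no filter or with only the 2 groups fitted, and 2 to 9 with single libraries left out. The 2 were reached without EtOH control replicate 3 and the 9 without 4OHT control replicate 3, where Lars2, Yars2 and Elac2 were called. In the KO against the 4OHT control, 7 became 1 with replicates 1 and 3 or 1 and 2 (Gtpbp3), 13 with the replicate block over all 3 and 6 to 9 with single libraries left out. The causes were not tested, and over all genes the calls fell likewise, to 13, 13 and 82 (replicates 1 and 3) and 21, 24 and 114 (replicates 1 and 2) in the 3 comparisons. Over replicates 2 and 3 the replicate block changed no member call in the KO against the EtOH control, where 322 of 14172 tested genes were called. It called 9 members in the KO against the 4OHT control (25.0%, Cars2 and Trit1 added), where 4174 of the 14172 were called. In the 4OHT control against the EtOH control it added Aars2, Fars2, Mtif2 and Pus1 (Pus1 -0.22, adjusted p = 0.044 in edgeR), where 3914 of the 14172 were called. In that comparison DESeq2 called 1682 of 14172 genes, the fit with no filter 2104 of 26567 and that of only the 2 groups 1936 of 13900.

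Member medians with single libraries left out ran from -0.0712 to 0.0125, -0.1029 to -0.0077 and -0.0243 to 0.0718 in the 3 comparisons. No member difference past the threshold in any of the 3 reported fits reversed in direction in any alternative (29 differences, 493 values), and 395 of the 493 kept their side of the threshold. The 9 Zbtb11-high members were 9 without any single antibody library, and 8 by the mean of the FLAG libraries. Depth limits members with few reads, such as Trmu (42 to 129 per library) and Mtrf1l (62 to 113).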
